A study of Mus musculus with 2 samples.

Results

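Müller glia and astrocyte-like cells made up 89 of the 4456 cell barcodes kept from a single-cell RNA sequencing study of CD45-sorted mouse retina. A barcode was counted as a member when it held at least 5 unique molecular identifiers (UMIs, each standing for 1 captured transcript) of Rlbp1, Dkk3, Mgarp, Aqp4 and Car2 together, with at least 3 of these 5 genes counted. Members were thus chosen by the measured counts of these genes, in both libraries alike. The library labelled wildtype gave 52 members of 2695 kept barcodes, or 1.93% (exact Clopper-Pearson 95% interval 1.44 to 2.52). The library labelled Igfbpl1 knockout gave 37 of 1761, or 2.10% (1.48 to 2.88). These intervals overlap, and they cover counting error only, as do all intervals below.

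Müller glia are the radial glia of the retina and span its full depth. They clear glutamate, move water and potassium, buffer acid, recycle visual pigment precursors for cones and supply lipid-carrying apolipoproteins. Retinal astrocytes lie among the ganglion cell axons at the inner surface, migrate in along the optic nerve during development and are classically marked by the intermediate filament Gfap.

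The study set out to compare microglia with and without Igfbpl1, a gene named for its likeness to the binding proteins of insulin-like growth factors. The groups were Igfbpl1-/- mice and sex-matched wildtype mice, both labelled C57BL/6 and aged 8 to 10 months. All were perfused, their retinas were digested warm with collagenase/dispase, papain and DNase, and the cells were sorted for CD45, a leukocyte surface protein, before 10x Genomics 3' library preparation. MB mice, which the design text also names, were not analysed here. The design text names 10 mice per genotype. The labels give neither the number of mice in each library nor the altered allele, and each genotype was 1 library, so there was no replicate, no test was possible and no p-value is given. The sort was for leukocytes, so the share of members describes the sorted suspension and not the retina.

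The libraries held 11020717 and 7945713 UMIs, with medians of 3910 and 4286 per kept barcode. The members held 279222 UMIs in the library labelled wildtype and 197893 in the library labelled knockout. Median depth per member was 5019.5 UMIs (663 to 11920) and 5777 (567 to 17725). Igfbpl1 went against the labels: all barcodes of the library labelled wildtype held 2 UMIs and those of the library labelled knockout 29. Within members the counts were 1 and 0. A count of 0 does not show absence, and 3 counts there would be 15.2 CPM (UMIs per 1000000 UMIs of the summed barcodes). Directions below are therefore those of the library labelled knockout against the library labelled wildtype. Of the barcode sequences, 1 was present in both libraries, and it was no member.

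Members stood clear of the threshold. The lowest member carried 9 UMIs of the rule genes under the wildtype label and 10 under the knockout label, and the medians were 65 and 89. No member had 5 to 8. Outside the rule, 97.4% and 96.6% of the other kept barcodes held none of these UMIs, and none held 3 or more spread over 3 genes. The highest other barcodes held 58 and 69 UMIs on fewer than 3 genes. Barcodes rich in rod or bipolar cell genes carried Mgarp at 5112 and 5975 CPM with Car2 at 548.5 and 887.4 CPM, while Rlbp1, Dkk3 and Aqp4 were at 0 in all 48 of them. These 48 exclude members by definition, so the rule largely sets those zeros.

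**Figure D1:**
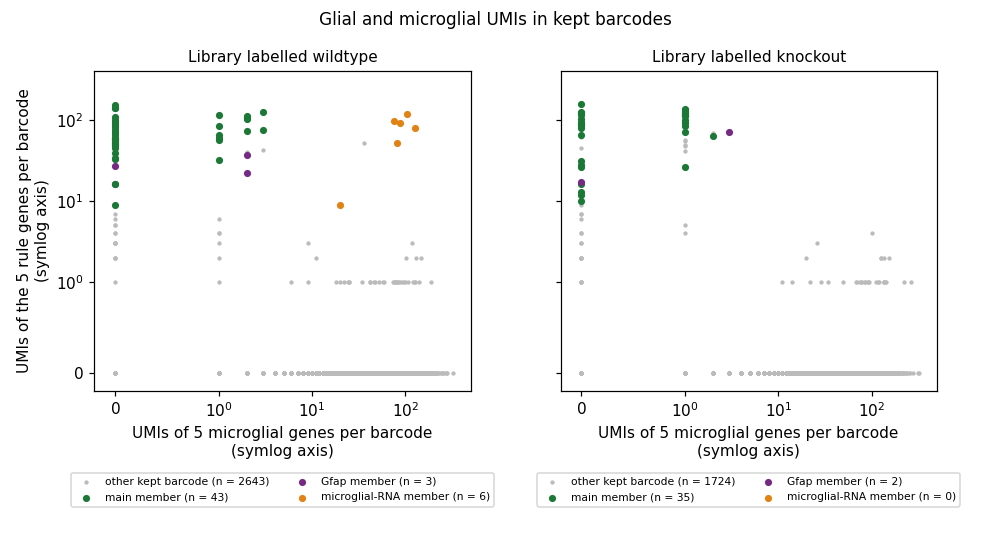
Each point is a kept barcode, with UMIs of 5 microglial genes, P2ry12, Cx3cr1, Tmem119 and Csf1r among them, on the x axis and UMIs of the 5 rule genes on the y axis (both symmetric log axes); colours give the kind of member. Members lie at 9 rule-gene UMIs or more, and the 6 microglial-RNA members lie to the right at 20 to 127 microglial UMIs.

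The rule genes themselves are given as a description, since they chose the members. Rlbp1 (7:79374870-79387048, minus strand, GRCm38) encodes the retinaldehyde carrier CRALBP, and its level was 2607 CPM (exact Poisson 95% interval 2421 to 2804) and 3426 CPM (3173 to 3694). Dkk3 (7:112116017-112159057, minus strand), a secreted Dickkopf family glycoprotein, was at 2228 and 2077 CPM. Mgarp (3:51388412-51396738, minus strand), a mitochondrial protein, was at 5096 and 6013 CPM. Car2 (3:14886273-14900770, plus strand), a carbonic anhydrase, was at 1819 and 2092 CPM. The water channel Aqp4 was at 1264 and 1784 CPM. Of the members, 44 and 30 had UMIs of all 5 genes, and 5 in each library had exactly 3.

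The members were of 3 kinds. This split was made after their values had been seen. The main kind held 43 members under the wildtype label and 35 under the knockout label; microglial genes were near 0 in them and Gfap was counted as 1 UMI among all 78. In 5 members, 3 and 2, Gfap, Pax2 and Pdgfra together reached at least 10 UMIs; these are called Gfap members below. In 6 members, all under the wildtype label, those 5 microglial genes together reached at least 10 UMIs; these are called microglial-RNA members.

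UMIs of Gfap, Pax2 and Pdgfra lay nearly all in the Gfap members, which were picked by these genes. The whole list of 16 astrocyte genes did not. Main members held 591 and 660 of its UMIs, and Gfap members 317 and 368. As a share of UMIs it was 0.283% and 0.379% in main members, against 1.57% and 1.54% in Gfap members. The values that follow are a description. Gfap (11:102887336-102900912, minus strand) gave 17, 21 and 4 UMIs in the 3 under the wildtype label and 28 and 53 in the 2 under the knockout label. Pax2, a transcription factor of optic nerve and retinal astrocytes, gave 6 UMIs in all 5 together, with 0 in every other member. Pdgfra, the receptor through which retinal astrocytes are known to be driven to proliferate, gave 62 UMIs against 0 in the main kind. The calcium-binding protein S100b stood at 3035 CPM against 15.7 CPM in the main kind, and the glycolytic enzyme Aldoc at 5209 against 1066 CPM. Cst3, a secreted cysteine protease inhibitor, was at 40403 against 828.4 CPM. The median mitochondrial share was 9.51% and 5.88% in the Gfap members, against 1.32% and 1.62% in the main kind, and its part in these values was not tested.

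Several genes that mark the main kind were missing from the Gfap members. Aqp4, the membrane carbonic anhydrase Car14 and the transporter Abca8a each gave 0 UMIs, and Car2 gave 1 UMI. At 20184 and 23971 UMIs, 3 counts would be 149 and 125 CPM, so low levels could be missed. Aqp4 is also a known astrocyte gene, so its counts go against a plain astrocyte label, and these barcodes are called here by their leading gene. The same barcodes held Rlbp1 at 1087 CPM and Mgarp at 1744 CPM, below the 3368 and 6227 CPM of the main kind. The rule needs 3 of its 5 genes, and Aqp4 and Car2 were all but uncounted here. It thus largely sets the presence of Rlbp1, Dkk3 and Mgarp in these barcodes. Rgs5, a pericyte gene, stood at 1246 CPM and the chemokine Cxcl12 at 1155 CPM, against 0 and 5.23 CPM in the main kind. The hypoxia-response factor Epas1 was at 1834 CPM against 94.1 CPM. The deepest Gfap member, with 17725 UMIs under the knockout label, held 53 of the 123 Gfap UMIs.

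Against barcodes rich in microglial genes (2390 and 1532 barcodes with at least 10 UMIs of those 5 microglial genes), the values of members are given as a description, since the rule used this contrast and nothing is read from the counts. Of 50 other Müller glial genes, 44 were higher in members by 2-fold or more and none lower by that much, with a median log2 ratio of 8.67. The background over 12356 genes with at least 20 UMIs was 31.1% higher and 17% lower, with a median of 0.37. Among the 15 genes with the highest ratio to all other kept barcodes were Abca8a at 1149 against 0.109 CPM, Sox2 at 626.7 against 0.163 CPM, Il33 at 568.0 against 0.109 CPM, Col9a1 at 557.5 against 0.109 CPM and Epha5 at 1350 against 0.271 CPM. Sbspon, Efemp1 and Prss56 were at 0 in all other kept barcodes and in members stood at 612.0, 563.8 and 500.9 CPM. Prss56, a serine protease tied to eye growth, came from only 10 and 7 members, and 31.0% and 41.5% of its UMIs came from 1 member in each library.

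By role, glutamate handling included Glul, glutamine synthetase, at 11224 CPM in members against 487.4 CPM in microglia-gene barcodes. Slc1a3, the glial glutamate transporter GLAST, was at 1350 against 71.5 CPM. Of 10 measured genes of this list, 7 were at least 2-fold higher in members. The share over all genes was 31.1%, for this list and those that follow. In the ion, water and acid-base list, which holds the rule genes Aqp4 and Car2, 12 of 14 were, including Car14 at 813.2 against 0.0577 CPM and Mlc1, a membrane protein of glial endfeet, at 628.8 against 0.115 CPM. In the retinoid cycle list, 5 of 7 were, the rule gene Rlbp1 among them. Glycolysis genes were at least 2-fold higher in 11 of 14, and the enolase Eno1 was at 4035 against 167.6 CPM. Rod- or bipolar-gene barcodes also held this list, at medians of 1.79% and 1.64% of UMIs per barcode against 1.03% and 1.22% in members. As sums the shares were 1.34% and 1.09% against 1.03% and 1.27%.

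Genes of the Notch and progenitor list were also present. Of its 18 genes, 17 were at least 2-fold higher in members than in microglia-gene barcodes, beside 31.1% of all genes. Hes1 and Hes5, targets of Notch signalling, were at 913.8 and 639.3 CPM, against 46.2 and 0.346 CPM. The eye-field factor Pax6 was at 679.1 CPM and the glial factor Sox9 at 662.3 CPM. Acsl3, which activates fatty acids, stood at 3890 against 6.29 CPM, and the acyl-CoA binding protein Dbi at 3546 against 143.0 CPM.

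Markers of other retinal cells were low. Rod genes made up 0.0261% and 0.00606% of member UMIs, bipolar genes 0.00466% and 0.00404%, and border macrophage genes 0 and 0.000505%. A single member, under the wildtype label, also met the rod or bipolar cell rule. Endothelial and pericyte genes made up 0.160% and 0.164%, carried mainly by Kdr at 729.4 CPM and Flt1 at 561.7 CPM, the receptors of vascular endothelial growth factor. Kdr stood at 9.35 CPM and Flt1 at 1.44 CPM in microglia-gene barcodes. Malat1, a nuclear RNA, made up a median of 8.48% and 7.92% of member UMIs, against 2.21% and 2.03% in microglia-gene barcodes. It was at 0 in 3 and 7 members, which had 663 to 1017 and 567 to 3926 UMIs and mitochondrial shares of 4.83% to 7.04% and 5.18% to 11.7%.

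Apoe and Clu encode the lipid carriers apolipoprotein E and clusterin. Apoe (7:19696109-19699188, minus strand) was counted in all 89 members. Per member its level ran from 5181 CPM through a median of 17082 to 31871 CPM under the wildtype label, and from 6821 through 20170 to 49370 CPM under the knockout label. The ranges overlapped over most of their length. Summed over members it was 15901 CPM (15437 to 16376) and 21214 CPM (20577 to 21865), a ratio of 1.33 (interval of the split of counts 1.28 to 1.39). Over main members alone the ratio was 1.25 (1.19 to 1.31). The microglial-RNA members, all under the wildtype label, stood at 8910 CPM.

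Clu (14:65968483-65981547, plus strand), also called apolipoprotein J, was counted in 50 and 35 members. Per member it ran from 0 through 5683 to 15878 CPM under the wildtype label and from 0 through 5262 to 14578 CPM under the knockout label. Summed, it was 5576 CPM (5303 to 5860) and 5781 CPM (5451 to 6126), a ratio of 1.04 (0.960 to 1.12). Main members alone gave 1.00 (0.925 to 1.09). The Clu interval thus held 1 and the Apoe interval did not, while the spread between libraries of 1 genotype is unknown.

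Clu was all but absent from microglia-gene barcodes, while Apoe was present in many of them. Clu stood at 0.690 and 1.53 CPM there, in 7 and 6 barcodes. Apoe stood at 5360 and 10241 CPM, in 614 and 678 barcodes, a ratio of 1.91 (1.89 to 1.93) between the libraries. It was counted in 25.7% and 44.3% of microglia-gene barcodes, so these sums also cover barcodes without it. The lipid handling list reached 24.1% and 45.2% of UMIs in single microglia-gene barcodes, against at most 5.63% and 7.25% in members. The Apoe ratio was lower in members than in microglia-gene barcodes, and that difference was not tested. Glul had a ratio of 1.27 (1.21 to 1.34) in members and 0.988 (0.946 to 1.03) in microglia-gene barcodes.

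**Figure D2:**
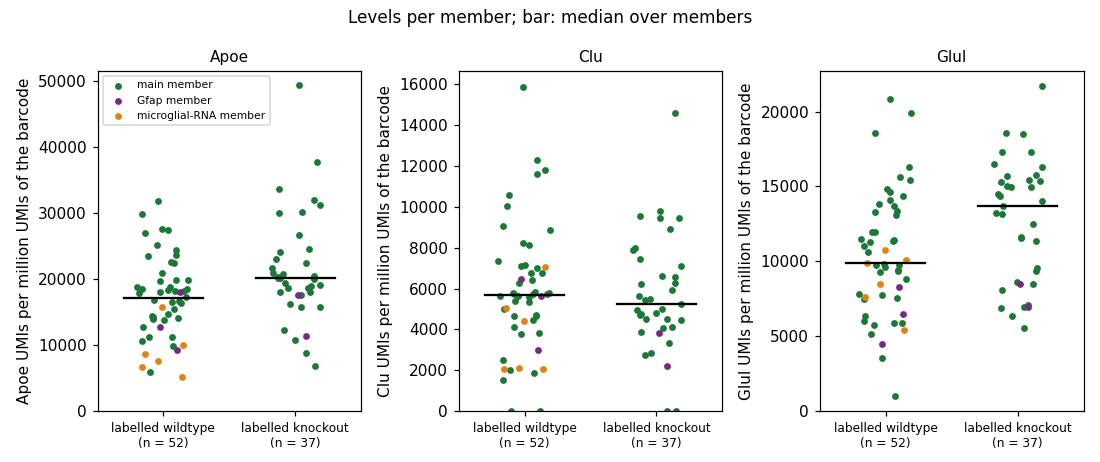
Apoe, Clu and Glul per member, in CPM of the barcode (y axis), by library (x axis); colours give the kind of member and bars the median over members. The median was 17082 and 20170 CPM for Apoe and 5683 and 5262 CPM for Clu, and the points of the libraries overlap in each panel.

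Nearly all members held some UMIs of the microglia list (1 of 52 and 0 of 37 held none, with medians of 8 and 7 UMIs), and few held a large share. Without Cst3, Lgmn and Ctsd, which other cells also make, 8 of 52 and 9 of 37 held none, with medians of 2 and 1 UMIs. The 26 microglia-list genes made up 0.155% and 0.152% of main-member UMIs, against 13.7% and 13.3% in microglia-gene barcodes. Without Cst3, Lgmn and Ctsd these shares were 0.0364% and 0.0305%, against 7.89% and 7.56%. The median gene stood at 0.347% and 0.372% of its microglial level, and 8 and 6 of the 26 were at 0. Ptprc, which encodes the CD45 protein used in the sort, gave 0 and 1 UMIs in the main kind, 0 in the Gfap members and 6 in the microglial-RNA members. Its level in microglia-gene barcodes was 377.4 and 349.1 CPM.

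The microglial-RNA members were picked by 5 genes of this list, P2ry12 among them, so their values are a description. All 26 genes were counted in them, at 31.6% to 72.3% of the microglial level with a median of 48.5%. P2ry12, a purinergic receptor of resting microglia, was at 1193 CPM, 72.3% of its microglial level. Ctsd was at 3103 CPM (57.0%) and C1qa at 4773 CPM (42.4%). Their glial genes were lower than in the main kind: Rlbp1 stood at 1372 against 3368 CPM, Mgarp at 3043 against 6227 CPM and Clu at 3321 against 6204 CPM. Median depth was 9597.5 UMIs, against 4619 in the main kind of the same library. Whether each of these barcodes held more than 1 cell was not tested. As summed UMIs, a difference between libraries was also present outside members. In rod- or bipolar-gene barcodes that were no members, the microglia list made up 1.92% of UMIs under the wildtype label and 0.207% under the knockout label. Medians per barcode there were closer, at 0.477% and 0.235%, and the highest barcodes reached 11.3% and 0.873%. Without Cst3, Lgmn and Ctsd these medians were 0.0520% and 0.0428%. The highest counts of the 5 microglial genes there were 119 and 2 UMIs.

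The microglia list reads differently in the Gfap members. Its share there was 3.46% and 4.80%, yet 18 of 26 genes were at 0 in each library. Without Cst3, Lgmn and Ctsd, which other cells also make, the share was 0.0347% and 0.0209%. Cst3 alone reached 68.1% and 96.6% of its microglial level. Cst3 was at 1.71% of it in the main members of both libraries.

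**Figure D3:**
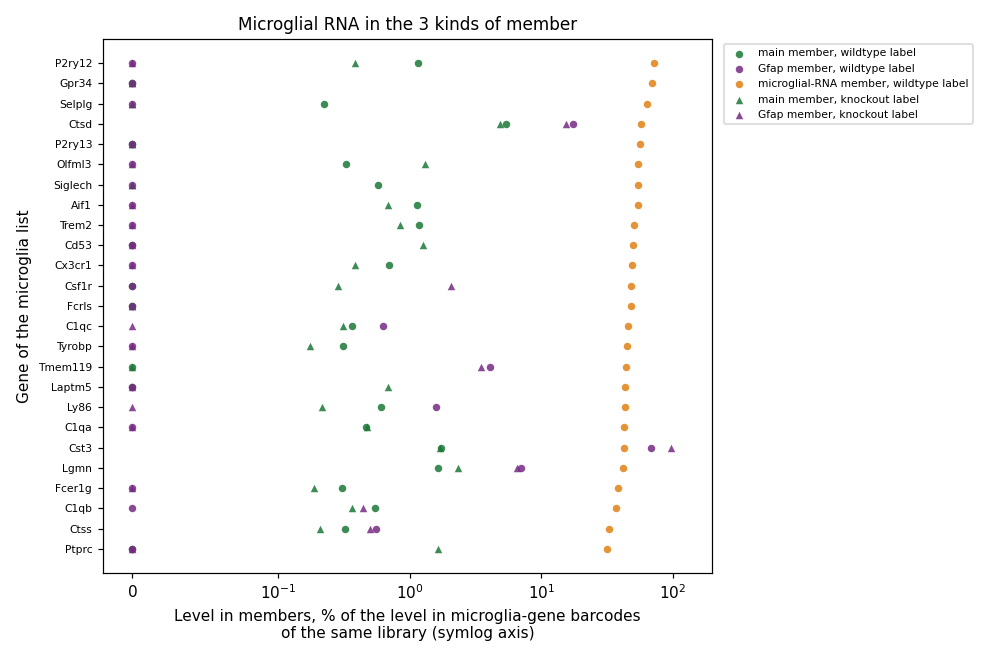
Level of 25 of the 26 microglia-list genes (y axis) in the 3 kinds of member, as a percent of the level in microglia-gene barcodes of the same library (x axis, symmetric log); circles are the wildtype label, triangles the knockout label. Microglial-RNA members lie between 31.6% and 72.3%, and Gfap members are at 0 for 18 of 26 genes in each library but reach 68.1% and 96.6% for Cst3.

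Microglia-gene barcodes exclude members, so levels of the rule genes there are held low by the rule. Rlbp1 was at 0.493 and 0.836 CPM there, in 4 of 2390 and 6 of 1532 barcodes, which is 0.0189% and 0.0244% of the member level. Abca8a had 1 UMI in each library. Glul was found in 77.5% and 75.7% of microglia-gene barcodes at 4.86% and 3.77% of its member level.

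Between the libraries, 1844 genes had at least 50 member UMIs. Of these, 28 stood 2-fold or more above the wildtype label under the knockout label (1.52%) and 48 stood 2-fold or more below it (2.6%), 4.12% in either direction. Of the 48 lower genes, 15 belonged to the microglia list and 32 were at least 2-fold higher in microglia-gene barcodes than in members. Over 12356 genes compared between those barcodes and members, 17% were that much lower in members. Those genes needed at least 20 UMIs over both kinds of barcode, not 50 in members, so the 17% is not a matched base. Of 4593 genes with at least 20 member UMIs, 22 belonged to the microglia list, and 21 of these were at least 2-fold lower. The part of the 6 microglial-RNA members of the library labelled wildtype in the 48 lower genes was not tested. Without those 6 the counts were 17 higher and 20 lower. Main members alone gave 15 higher (1.06% of 1417) and 24 lower (1.69%), 2.75% in all. Over all members, a minimum of 100 UMIs per gene gave 7 and 15.

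The 8 lowest ratios outside the microglia, rod and bipolar lists included Atf3, Hspb1 and Dnajb1, most of whose UMIs came from 1 barcode. Atf3, a stress-induced transcription factor, gave 109 UMIs (390.4 CPM) against 1 (5.05 CPM), a ratio of 0.0129 (0.000325 to 0.0737). A single member under the wildtype label, the deepest there at 11920 UMIs, held 77 of those 109. The same member held 56 of 69 UMIs of the small heat shock protein Hspb1, which was at 0 under the knockout label. The Hspb1 ratio was 0.0613 with a floor of 3 counts, and its interval ran up to 0.0775. That barcode also held 73 of the 103 UMIs of Dnajb1, the partner of heat shock protein 70, against 7 under the knockout label. Without this member the log2 ratio of Atf3 was -4.57 in place of -6.27, and that of Dnajb1 -1.67 in place of -3.38. That of Hspb1, set by the floor, was -1.68 in place of -4.03. Ppp1r15a, which restarts translation after stress, gave 91 UMIs in 18 members against 12 in 2, where 11 came from the deepest member; without the deepest member of each library its log2 ratio was -5.75. Klf2 (ratio 0.0513), a transcription factor, was at 1355 CPM in microglia-gene barcodes, and main members held 2 and 0 of its UMIs. Klf6 and the linker histone gene Hist1h1e had ratios of 0.192 and 0.210.

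The genes with the highest ratios were partly those of the Gfap members. Epas1 was at 136.1 and 414.4 CPM, a ratio of 3.04 (2.05 to 4.60), and 65.9% of the knockout-label UMIs came from the member of 17725 UMIs. Gfap had a ratio of 2.75 (1.88 to 4.10) with 64.6% from the same member, and Pdgfra 2.45 (1.43 to 4.29) with 70.0% from 1 member. Without the deepest member of each library Pdgfra lay on the other side, at a log2 ratio of -0.37, while Epas1 was at 0.13, Gfap at 0.035 and Crip1 at 0.60, under 2-fold. S100a6, a calcium-binding protein, was at 111.0 and 293.1 CPM, a ratio of 2.64 (1.68 to 4.23), counted in 20 and 25 members, and 2.19 (1.37 to 3.58) in the main kind. Crip1 had a ratio of 2.63 (2.68 in the main kind), Minos1 2.40, Nme1 2.39 and Eps15 2.37. In microglia-gene barcodes the ratio was 3.12 (2.53 to 3.86) for S100a6 and 2.29 (2.02 to 2.60) for Crip1. The differences in these genes were thus not particular to members. Minos1, Nme1 and Eps15 had ratios of 1.08, 1.10 and 0.912 in microglia-gene barcodes. Minos1, a subunit of the complex that shapes mitochondrial cristae, was spread over 26 and 32 members and had a ratio of 2.03 in the main kind. Among main members Ctgf, a matrix protein and target of YAP, was also higher, at a ratio of 2.29 (1.64 to 3.24), though over all members 44.7% and 39.3% of its UMIs came from 1 member in each library.

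The immediate-early and heat shock list was lower under the knockout label over all members and in the main kind, but not in the Gfap members. Its 18 genes made up a median of 0.812% of UMIs per member (0 to 8.49%) in the library labelled wildtype and 0.296% (0 to 5.07%) in the library labelled knockout. A share of at least 1% was reached by 23 of 52 and 10 of 37 members, and at least 4% by 5 and 1. The ranges overlapped, with most of the high members under the wildtype label. Over 17 measured genes the median log2 ratio was -0.78, with 5 at least 2-fold lower and 1 at least 2-fold higher. Over all 4593 genes with at least 20 UMIs the median was 0.01, with 6.05% past 2-fold lower, 3.59% past 2-fold higher and 9.65% in either direction. Among main members the list's median was -1.51, all 16 measured genes had ratios below 1, and 12 were at least 2-fold lower (3.99% of all genes there, and 7.38% past 2-fold in either direction). In microglia-gene barcodes it was -0.11, with none of 18 genes past 2-fold. In the Gfap members the list went the other way. It made up 1.62% of their UMIs under the wildtype label (3 members) and 4.27% under the knockout label (2 members). The median mitochondrial share of members was 1.34% and 1.85%, and its part in the difference over all members was not tested.

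Jun and Fos, which pair to form the AP-1 transcription factor, held the most UMIs of this list. Jun was at 3660 CPM (3439 to 3892) and 1844 CPM (1660 to 2044), in 46 of 52 and 24 of 37 members. Its median per member was 1471 and 318.7 CPM, and the highest values were 18151 and 8124 CPM. The summed ratio was 0.504 (0.446 to 0.568) and, in the main kind, 0.335 (0.284 to 0.393). Fos was at 3030 and 1728 CPM, a ratio of 0.570 (0.502 to 0.647), and 0.323 (0.272 to 0.381) in the main kind. The Gfap member of 17725 UMIs held 39.5% of Jun and 40.4% of Fos UMIs under the knockout label, and without the deepest member of each library the log2 ratios were -1.46 and -1.25. Thinned to 1000 UMIs each, 73.5% of 49 members and 43.8% of 32 members had a Jun UMI, with 3 and 5 shallower members left out; unthinned shares were 88.5% and 64.9%. Jund had a ratio of 0.696, Junb 0.797 and Hspa1b, an inducible heat shock protein 70, 0.263 (0.187 to 0.361), with UMIs in 20 and 6 members. Hspa1a, its near-identical neighbour, had a ratio of 1.26 (0.948 to 1.67). How reads were split between these copies was not tested, so both values are uncertain.

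Promoters are printed for 2 genes of this list because most of its genes had ratios below 1. They are the 250 bases before the RefSeq gene start (GRCm38.p6), on the strand of the gene. In Fos (chr12:85473640-85473889, plus strand) the capitals mark 2 matches to TGACG, the core letters of the cAMP response element, read on both strands as TGACG or CGTCA. In Hspa1b (chr17:34959239-34959488, minus strand) the capitals mark 1 match to GAANNTTC, the paired unit of the heat shock element, which reads the same on both strands.
Fos: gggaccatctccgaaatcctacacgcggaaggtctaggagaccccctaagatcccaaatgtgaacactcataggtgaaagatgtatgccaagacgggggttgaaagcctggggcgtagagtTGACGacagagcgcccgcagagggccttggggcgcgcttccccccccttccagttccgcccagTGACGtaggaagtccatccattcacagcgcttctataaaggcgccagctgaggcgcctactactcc
Hspa1b: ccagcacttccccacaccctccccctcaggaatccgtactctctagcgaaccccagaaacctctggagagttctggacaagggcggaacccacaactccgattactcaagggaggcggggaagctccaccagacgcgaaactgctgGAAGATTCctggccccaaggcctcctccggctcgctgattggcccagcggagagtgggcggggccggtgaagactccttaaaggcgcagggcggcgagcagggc
TGACG or CGTCA was found in 8 of the 16 list genes that matched a promoter by symbol, and in 17.8% of all 32851 promoters of that length. GAANNTTC was found in 3 of the 16, namely Jun, Hspa1a and Hspa1b, and in 6.69% of all promoters. The genes holding TGACG or CGTCA were Fos, Fosb, Junb, Atf3, Dusp1, Btg2, Nr4a1 and Dnajb1. A match describes letters in a window and shows neither binding nor a cause.

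Interferon-response genes were higher under the knockout label in sum, through a few members. The list's median log2 ratio was 1.16 over 9 measured genes, with 6 past 2-fold higher and 1 (Cxcl10, 26 and 1 UMIs) past 2-fold lower. Over all 4593 genes, 3.59% were past 2-fold higher and 6.05% past 2-fold lower. Isg15 (7 and 42 UMIs) and Cxcl10 reached 20 UMIs only through the library where each was high. Main members held 0 and 1 UMIs of Cxcl10. Main members gave 0.79 over 7 genes, with 3 at least 2-fold higher (3.38% of all genes there), and in microglia-gene barcodes -0.18. Per member the list made up a median of 0.0616% and 0.0659% of UMIs, so the medians differed little. Shares of at least 0.5% were reached by 1 of 52 and 4 of 37 members.

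Bst2, the antiviral tether protein tetherin, was at 139.7 and 313.3 CPM, a ratio of 2.24 (1.48 to 3.44), and 45.2% of its knockout-label UMIs came from 1 member. Ifit3, an antiviral RNA-binding protein, was at 103.9 and 232.4 CPM, a ratio of 2.24 (1.38 to 3.69) in members, against 0.631 (0.570 to 0.697) in microglia-gene barcodes. Oasl2 had a ratio of 2.30 (1.26 to 4.31), and Ifitm3 1.08 (0.723 to 1.59). In the main kind Oasl2 was at 1.73 (0.915 to 3.36), an interval that holds 1, and Ifit3 at 1.73 (1.03 to 2.95). Bst2 was at 2.09 (1.32 to 3.36) there and Ifitm3 at 1.00 (0.658 to 1.51). In microglia-gene barcodes the ratios were 1.19 for Bst2, 1.28 for Ifitm3 and 0.957 for Oasl2. Isg15, named after its values were seen, gave 7 UMIs in 5 members against 42 in 9. Thinned to 1000 UMIs, Ifit3 was found in 16.3% of 49 and 12.5% of 32 members, and Bst2 in 10.2% and 15.6%, and no difference was detectable at that depth.

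**Figure D4:**
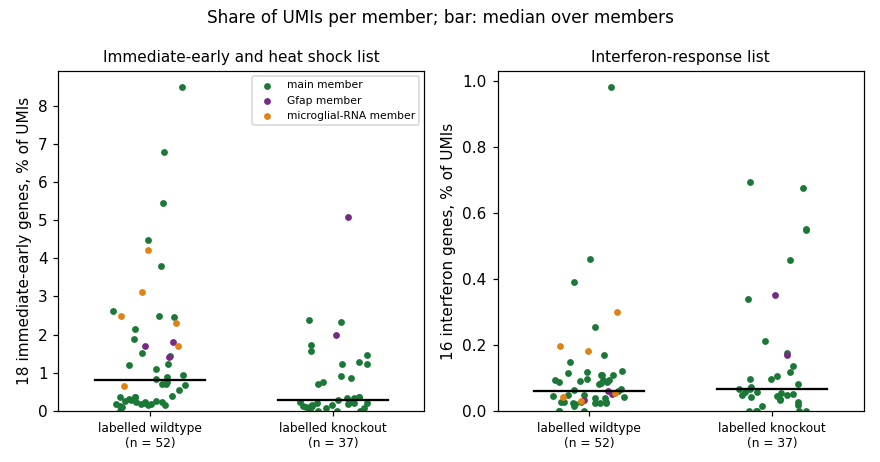
Share of UMIs per member (y axis, percent) of the immediate-early and heat shock list and of the interferon-response list, by library (x axis); colours give the kind of member and bars the median over members. Shares of at least 4% of the first list occurred in 5 members under the wildtype label and 1 under the knockout label, and shares of at least 0.5% of the second list in 1 and 4.

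Medians of the glial lists ran from -0.37 for the retinoid cycle to 0.69 for the astrocyte list, against 0.01 for all genes. The 49 measured Müller glial genes had a median log2 ratio of 0.07, with 29 above and 20 below a ratio of 1, and none was at least 2-fold lower; 1, the hyaluronan receptor Cd44 (8 and 14 UMIs, named after its value was seen), was at least 2-fold higher. Main members gave -0.00205 over 48 genes. Glutamate handling (0.09), ion, water and acid-base genes (0.20), lipid handling (0.16), Notch and progenitor genes (-0.02) and matrix, junction and cytoskeleton genes (-0.02) had the medians given in brackets. The metal and antioxidant list had a median of 0.25, and 0.02 in the main kind, and the MHC class I list -0.34 and 0.12. The retinoid cycle list had a median of -0.37 over 6 genes. In it Rlbp1 had a ratio of 1.31 (1.18 to 1.46). Over main members Hes1 had a ratio of 0.763 (0.618 to 0.940). Id3, an inhibitor of helix-loop-helix factors picked after its values were seen, had a ratio of 0.476 (0.339 to 0.662) there.

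Of 12 glycolysis genes, 11 had ratios above 1, beside 2333 of all 4593 genes, with a median of 0.31, and none reached 2-fold. Gapdh was at 1375 and 2239 CPM, a ratio of 1.63 (1.42 to 1.87), and 1.52 (1.31 to 1.77) in the main kind. The list's median there was 0.16, with 8 of 12 above 1, beside 1905 of all 3755. The gliosis list had a median of 0.26, and -0.08 in the main kind, where Gfap was all but uncounted. Within it the lens and glial chaperone Cryab was at 881.0 and 1385 CPM, a ratio of 1.57 (1.32 to 1.87), and 1.48 (1.23 to 1.78) in the main kind, while ceruloplasmin, Cp, was at 1336 and 1218 CPM. The intermediate filament Vim had a ratio of 1.19 (1.00 to 1.42). The astrocyte list had a median of 0.69 over 10 genes, 4 of them at least 2-fold higher (3.59% of all genes). This median was 0.031 without the deepest member of each library and 0.10 thinned to 1000 UMIs. It was 0.50 over 6 genes in the main kind, where Mfge8, a bridging protein for engulfment, had a ratio of 1.49 (1.23 to 1.80).

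**Figure D5:**
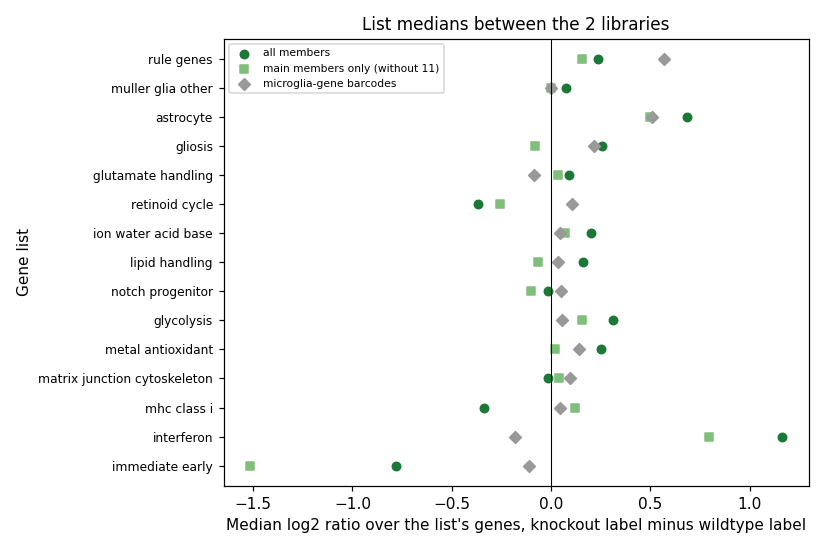
Median log2 ratio of each gene list, knockout label minus wildtype label (x axis), for all members, for main members only and for microglia-gene barcodes. The immediate-early list lies at -0.78, -1.51 and -0.11 in these, the interferon list at 1.16, 0.79 and -0.18, and the Müller glial list at 0.07, -0.00205 and -0.0028.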

How the data were processed

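The authors deposited for each library a table of raw UMI counts of 31053 genes by cell barcode; the counts are whole numbers with no normalization. Cell Ranger 3.1 and the mm10 build are named per the submitters' processing notes. A minimum of 500 UMIs and 250 genes and a mitochondrial share of no more than 15% removed 40 of 2735 and 24 of 1785. No doublet caller was run. Counts were summed over members of a library and given as CPM, per 1000000 UMIs of that sum. Ratios are knockout label over wildtype label, with the exact 95% interval of the split of counts, and a floor of 3 counts was used where a library was at 0. UMIs from free RNA were not subtracted. Genes were counted by size, at 2-fold, among those with at least 50 UMIs over both libraries, and gene lists were described among those with at least 20 UMIs. No test was run, since each group was 1 library. The ratio and its interval were tested on simulated Poisson counts, drawn independently for each gene. That setting leaves out the clustering of UMIs in single barcodes, so it cannot show how well the intervals cover here.

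Microglia-gene barcodes needed at least 10 UMIs of 5 microglial genes (P2ry12, Cx3cr1, Tmem119 and Csf1r among them) with at least 3 counted; border macrophages can meet this. The members and the 26 gene lists were chosen with earlier results of these data known. Named genes were the rule genes, Apoe, Clu, Igfbpl1, the 4 most abundant of each list, the 15 highest over other kept barcodes, and the 8 highest and 8 lowest between libraries whose interval excluded 1 (without ribosomal, mitochondrial, sex-linked and microglial, rod or bipolar list genes and unnamed gene models), with the same repeated in the main kind after the data were seen. Pax2, Ptprc, Malat1, Isg15, Cd44, Id3 and Hspa1a were named after their values were seen. Some genes that this rule names are not reported here. The genes of the border macrophage, cone, pigment epithelium, oligodendrocyte, lymphocyte and granulocyte, amacrine and horizontal and ganglion cell lists were too few in members to describe by gene; those lists made up 0 to 0.0723% of member UMIs. Gene positions are those of GENCODE for GRCm38. Python 3.11.15, numpy 2.4.6, pandas 2.3.3, scipy 1.17.1 and matplotlib 3.10.9 were used.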

Additional observations from a re-analysis of the deposited data

How the results depend on the processing

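Alternatives covered the barcode filter, the member rule, the weight of each member, depth, scaling and the gene minimum. Those without 6, 5 or all 11 members of the 2 smaller kinds, without members at 0 Malat1, without the member with most Atf3 and with a shorter microglia list were chosen after seeing the data. Of the values recomputed for the main results, 414 stayed within the counting interval or within 1.5 times the count. The others, 44 moved and 2 reversed, are given below. For a list median, the interval used was the median of its genes' own limits. That interval is wide, so a median could change sign and still lie within it. For example, the lipid handling median ran from -0.12 to 0.26 and that of MHC class I from -0.43 to 0.28. No paired analysis was possible because each group was 1 library, numbered in accession order, and for the same reason no replicate could be left out. The cause of each change below was not tested.

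The Apoe log2 ratio of 0.42 was 0.33 with equal weight per member, 0.30 thinned to 1000 UMIs, 0.28 without the 6 microglial-RNA members and 0.32 in the main kind. That of Clu, 0.05, was -0.082 thinned and -0.071 without the 6. The 28 higher and 48 lower genes were 48 and 78 with equal weight, 2 and 4 thinned (fewer genes tested), 165 and 278 with at least 20 UMIs, 7 and 15 with at least 100, 17 and 20 without the 6, and 15 and 24 without the 11. The immediate-early median of -0.78 was -1.04 with equal weight, -1.45 without the deepest member of each library, -1.63 without the Gfap members and -1.51 without the 11. The astrocyte median of 0.69 was 0.10 thinned and 0.031 without the deepest members, the gliosis median of 0.26 was -0.080 without the 11, and that of the rule genes was 0.12 without the 6. The microglia median of -4.12 was -2.39 thinned, and it reversed to 0.19 without the 6 and 0.041 without the 11.

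The microglia-list share under the wildtype label, 1.46%, was 1.40% with the stricter barcode filter, 1.42% with none, 1.18% for members at or below 50% of the microglial median, 1.06% with equal weight, 0.998% thinned, 1.52% without the deepest member of each library and also without the member with most Atf3 (the same barcode), 0.446% without the 6, 1.31% without the Gfap members, 0.155% without the 11 and 0.676% without Cst3, Lgmn and Ctsd. Under the knockout label, 0.715% was 0.422% with equal weight, 0.409% thinned, 0.297% without the deepest member, 0.152% without the Gfap members or the 11, and 0.0293% without the 3 genes.

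Single genes whose value changed sign were these, in log2 ratio. Gfap was -0.037 thinned, -1.01 without the Gfap members and -1.32 without the 11; the last 2 are set by the floor of 3 counts, since 0 and 1 UMIs were left, and show no direction. Pdgfra was -0.71 thinned and -0.37 without the deepest members, Ifit3 was -0.71 thinned, and Klf2 was 0.21 without the 6 and 0.85 without the 11, the latter again set by the floor, from 2 and 0 UMIs, with no direction shown. At this depth a gene with 50 member UMIs gives wide intervals, and the spread between libraries of 1 genotype is unknown.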
